A study of Mus musculus with 4 samples.

Results

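Mast cells store their mediators in secretory granules and release them when antigen crosslinks IgE bound to the high-affinity receptor on their surface. The granule holds proteases (carboxypeptidase A3, chymase, tryptase) and amines (histamine, and serotonin in rodents) bound to the glycosaminoglycan chains of the proteoglycan serglycin. The receptor is built from an alpha chain that binds IgE, a beta chain that amplifies the signal and a gamma chain, shared with other Fc receptors, that carries it into the cell. The 10 genes described here cover these parts: Cpa3, Cma1 and Tpsb2 for proteases, Srgn for serglycin, Hdc, Tph1 and Slc18a2 for amines, and Fcer1a, Ms4a2 and Fcer1g for the receptor. They were taken by symbol from the 55359 genes of the deposited table, each symbol matched 1 identifier, and all 10 were found. The set was chosen by symbol with the FPKM levels of these genes in the same libraries known, so the levels are given as a description and no test rests on them.

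RNA was sequenced from 4 libraries of cultured mouse cells labelled as female germline stem cells from ovary, cells kept in a medium with serum and added growth factors. The series design names cells given celastrol, a plant triterpenoid, for 12 h and control cells in triplicate, while the 4 samples analysed here carry labels that differ by the numbers 01, 02, 21 and 22 in their titles. The labels do not say which libraries received celastrol, so each library's value is given and no comparison of conditions was made. Nothing in the labels says whether the libraries came from separate cultures. The libraries held 12339636 to 13039541 counts, and 11107 genes, 20.1% of the table, were detected, which here means 1 FPKM or more in all 4 libraries. FPKM, computed by the authors, is the number of fragments per kilobase of exonic length, scaled to the library's total count.

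Of the 10 genes, 5 were detected (Cpa3, Tph1, Srgn, Fcer1g and Slc18a2), beside 20.1% of all genes, and 5 stayed under 1 FPKM throughout (Ms4a2, Hdc, Cma1, Fcer1a and Tpsb2), of which Fcer1a and Tpsb2 had no count. The 5 detected genes included members of the proteases, the amine genes and the receptor, and so did the 5 that were under 1 FPKM. By median FPKM over all genes of the table, Cpa3 ranked 143rd, Tph1 318th, Srgn 360th, Fcer1g 1493rd and Slc18a2 4642nd. The members together took 0.204% of all counts in library 01, 0.201% in library 02, 0.126% in library 21 and 0.129% in library 22. In bulk RNA, a change in the number of cells that make a transcript and a change in the transcript per cell cannot be told apart, and this holds for every value that follows.

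**Figure D1:**
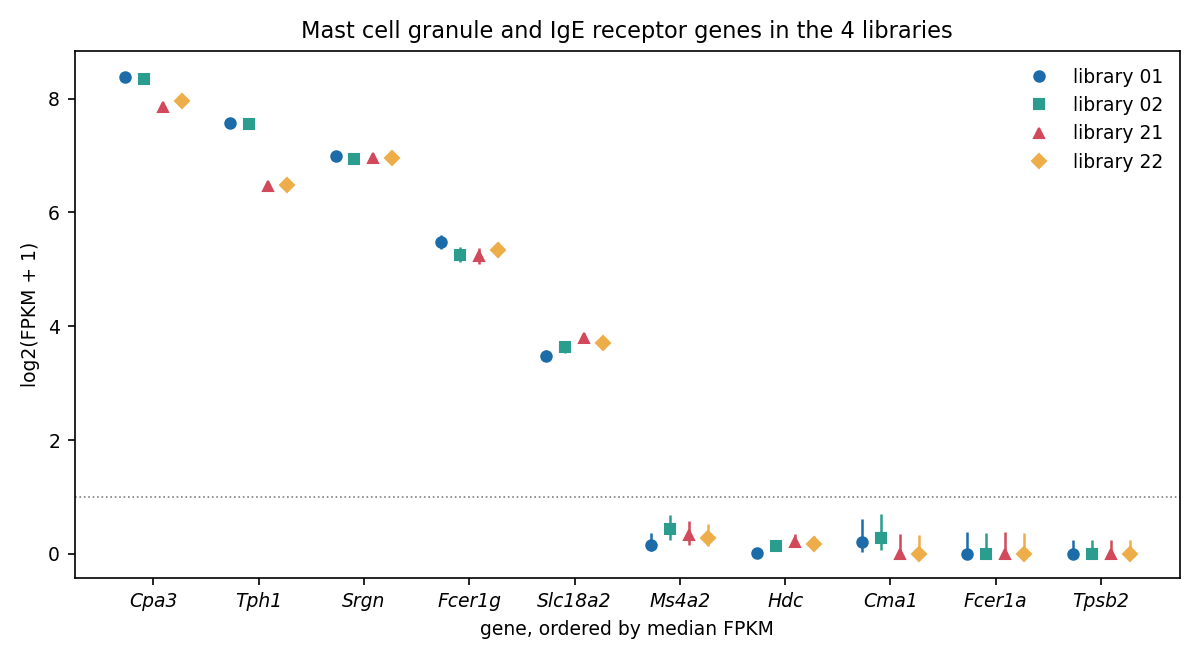
Level of each gene in each library as log2(FPKM + 1), genes ordered by median FPKM; points are the 4 libraries, vertical lines are exact Poisson 95% intervals (counting error only), and the dotted line marks 1 FPKM. Cpa3, Tph1, Srgn, Fcer1g and Slc18a2 stand above the line in every library, and Ms4a2, Hdc, Cma1, Fcer1a and Tpsb2 below it; for Tph1 and Cpa3 the points of libraries 01 and 02 lie above those of libraries 21 and 22.

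Cpa3 (ENSMUSG00000001865), which encodes the granule carboxypeptidase that trims peptides at their C-terminal end, was the most abundant of the 10 genes. It lies on the minus strand of chromosome 3, 20269784 to 20296345, in the deposited coordinates, whose genome build is not given in the sources used here. It was at 333 FPKM in library 01, 325 FPKM in library 02, 229 FPKM in library 21 and 247 FPKM in library 22, from 6240, 6424, 4308 and 4809 counts. Libraries 01 and 02 were higher than libraries 21 and 22, with Poisson 95% intervals of 317 to 342 FPKM over the higher pair of libraries and 222 to 254 FPKM over the lower pair. The level in library 01 was 1.45 times that in library 21, with a 95% interval of 1.399 to 1.51 that covers counting error only. The microRNA gene Mir7007 lies within Cpa3 on the same strand and held 12 to 25 counts per library. Cpb1, another carboxypeptidase gene and the next gene 6083 bases away, was at 0.07 to 0.17 FPKM.

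The other proteases were at or near 0. Cma1 (ENSMUSG00000022225, chromosome 14, 56178908 to 56182132, minus strand), the chymase gene, had 2 counts in library 01, 3 in library 02 and none in libraries 21 and 22. These few counts do not separate the libraries. The Poisson interval was 0.044 to 0.617 FPKM in library 02, the highest, and overlapped that of library 21, 0 to 0.273 FPKM. Tpsb2 (ENSMUSG00000033825, chromosome 17, 25585279 to 25588072, plus strand), a tryptase gene, had no count in any library, where 3 counts in a library equal at most 0.153 FPKM. Every 100-base stretch of the Cpa3, Cma1 and Tpsb2 transcripts of the GENCODE M21 annotation was unique to its gene, without a stretch shared with a paralog in that annotation.

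Srgn (ENSMUSG00000020077, chromosome 10, 62329612 to 62363230, minus strand), the gene of the proteoglycan core that packs proteases and amines in the granule, was the steadiest of the detected members. It was at 127 FPKM in library 01, 122 FPKM in library 02, 124 FPKM in library 21 and 123 FPKM in library 22, and the Poisson intervals of all 4 libraries overlapped. The highest library exceeded the lowest 1.04 times, with an interval of 0.989 to 1.09 that includes 1. Its log2 range, which is log2(FPKM + 1) in the highest library minus that in the lowest, was 0.05. Of the 11874 genes averaging at least 1 FPKM, 1.32% had a narrower range. Per length, Cpa3 was 2.63 and 2.66 times Srgn in libraries 01 and 02 and 1.85 and 2.01 times Srgn in libraries 21 and 22.

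Among the amine genes, Tph1 was abundant and Hdc was barely counted. Tph1 (ENSMUSG00000040046, chromosome 7, 46294065 to 46321961, minus strand) encodes tryptophan hydroxylase 1, the rate-limiting enzyme of serotonin synthesis outside the brain. It was at 189 FPKM in library 01, 188 FPKM in library 02, 87.8 FPKM in library 21 and 87.99 FPKM in library 22, from 14402, 15098, 6712 and 6979 counts. Tph1 supplied more counts than any other member, 0.117% of all counts in library 01 (Wilson 95% interval 0.115% to 0.119%) and 0.0542% in library 21 (0.0529% to 0.0555%). Libraries 01 and 02 were alike and so were libraries 21 and 22, with no overlap of Poisson intervals between the pairs, and library 01 stood 2.15 times above library 21 (95% interval 2.09 to 2.22). The nearest gene on one side, Sergef, was at 5.25, 5.98, 5.29 and 5.06 FPKM in libraries 01, 02, 21 and 22. The nearest on the other side, Gm45629, 10301 bases away, was at 1.05, 0.72, 0.57 and 0.40 FPKM from 33, 24, 18 and 13 counts. These few counts do not separate library 02 from library 21, and no interval was computed for this gene. The next gene there, Saal1, was at 6.57, 7.03, 5.72 and 6.62 FPKM.

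Slc18a2 (ENSMUSG00000025094, chromosome 19, 59249328 to 59284444, plus strand) encodes the vesicular monoamine transporter that loads serotonin and histamine into granules. It was at 10.2 FPKM in library 01, 11.4 FPKM in library 02, 12.8 FPKM in library 21 and 12.1 FPKM in library 22, from 657 to 831 counts. Library 01 was lowest and library 21 highest, the reverse of Tph1 and Cpa3, and library 21 stood 1.26 times above library 01 (95% interval 1.136 to 1.398). The Tph1 level was 18.6 and 16.5 times that of Slc18a2 in libraries 01 and 02 and 6.84 and 7.29 times in libraries 21 and 22. The order of Tph1 and Srgn also differed between libraries, as Tph1 was 1.49 and 1.54 times Srgn in libraries 01 and 02 and 0.710 and 0.717 times Srgn in libraries 21 and 22, all with counting intervals that exclude 1.

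Hdc (ENSMUSG00000027360, chromosome 2, 126435587 to 126461219, minus strand), which encodes the histidine decarboxylase that makes histamine, had 1 count in library 01, 8 in library 02, 13 in library 21 and 11 in library 22. These counts equal 0.01, 0.10, 0.16 and 0.13 FPKM, and the upper Poisson bound was at most 0.281 FPKM in any library. Library 21 was 12.9 times library 01, with an interval of 1.94 to 550.3 because library 01 held a single count. In each library Tph1 was far above Hdc per length, and the counts of Hdc are too few to order libraries 02, 21 and 22.

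The receptor was represented by its gamma chain. Fcer1g (ENSMUSG00000058715, chromosome 1, 171057141 to 171061934, minus strand) encodes the signalling chain with the tyrosine-based activation motif and was at 43.7 FPKM in library 01, 37.3 FPKM in library 02, 36.6 FPKM in library 21 and 39.6 FPKM in library 22. Its Poisson intervals overlapped over all libraries, from 33.1 to 40.4 FPKM in the lowest and from 39.8 to 47.8 FPKM in the highest, and the ratio of library 01 to library 21 was 1.19 (95% interval 1.04 to 1.37). Fcer1a (ENSMUSG00000005339, chromosome 1, 173048851 to 173054781, minus strand), the gene of the chain that binds IgE, had no count in any library, where 3 counts in a library equal at most 0.244 FPKM. Set against that floor in each library, the gamma chain was at 179, 162, 151 and 169 times the floor in libraries 01, 02, 21 and 22. These values leave out the counting error of the gamma chain. Ms4a2 (ENSMUSG00000024680, chromosome 19, 11592887 to 11601083, minus strand), the gene of the beta chain, had 4 counts in library 01, 13 in library 02, 9 in library 21 and 8 in library 22, which equal 0.12, 0.35, 0.26 and 0.22 FPKM. Its highest library, 02, was 3.08 times its lowest, 01, with an interval of 0.950 to 12.9 that includes 1. No 100-base stretch of Fcer1a or Fcer1g was shared with another gene, and 99.6% of those of Ms4a2 were unique.

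Within single libraries the order of levels was clear for the detected genes and not for the rest. In libraries 01 and 02 the order was Cpa3, Tph1, Srgn, Fcer1g and Slc18a2, and in libraries 21 and 22 Srgn stood before Tph1, with no overlap of Poisson intervals between neighbours. Ms4a2, Hdc and Cma1 could not be ordered, since their Poisson intervals overlapped in each library, and Fcer1a and Tpsb2 shared a count of 0.

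Promoter sequences are shown for the pair of detected members that varied most between libraries, Cpa3 and Tph1, and for the receptor chains that were without counts or nearly so, Fcer1a and Ms4a2. The blood-cell factor GATA2, known from mast cells, binds GATA motifs, so each window was searched on both strands for AGATAA and its forms with T as the first letter, G as the last letter or both. The matches are in capitals, and one on the other strand reads, for example, TTATCT. The windows run 5′ to 3′ from 250 bases before to 50 bases after a RefSeq start in GRCm38.p6. They are chr3:20242132-20242431 for Cpa3, chr7:46672488-46672787 for the farther upstream of the 2 Tph1 starts, chr1:173227180-173227479 for Fcer1a and chr19:11623670-11623969 for Ms4a2, all on the minus strand.
Cpa3: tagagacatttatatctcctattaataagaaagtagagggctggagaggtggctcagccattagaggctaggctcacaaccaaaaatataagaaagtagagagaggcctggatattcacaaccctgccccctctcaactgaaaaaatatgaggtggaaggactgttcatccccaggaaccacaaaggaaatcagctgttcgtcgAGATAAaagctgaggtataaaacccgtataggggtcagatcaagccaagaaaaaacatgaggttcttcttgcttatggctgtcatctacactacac
Tph1: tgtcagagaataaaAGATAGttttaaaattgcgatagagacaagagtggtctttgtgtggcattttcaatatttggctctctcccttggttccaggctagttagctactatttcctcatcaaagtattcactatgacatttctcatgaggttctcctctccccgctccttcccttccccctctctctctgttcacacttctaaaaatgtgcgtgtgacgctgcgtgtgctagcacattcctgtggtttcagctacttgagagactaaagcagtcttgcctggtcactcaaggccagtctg
Fcer1a: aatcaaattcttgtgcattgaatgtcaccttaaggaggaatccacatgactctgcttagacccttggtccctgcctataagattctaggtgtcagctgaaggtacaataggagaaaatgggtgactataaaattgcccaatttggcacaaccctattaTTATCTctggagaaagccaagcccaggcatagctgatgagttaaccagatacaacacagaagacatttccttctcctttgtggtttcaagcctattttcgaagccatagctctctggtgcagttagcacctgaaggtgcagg
Ms4a2: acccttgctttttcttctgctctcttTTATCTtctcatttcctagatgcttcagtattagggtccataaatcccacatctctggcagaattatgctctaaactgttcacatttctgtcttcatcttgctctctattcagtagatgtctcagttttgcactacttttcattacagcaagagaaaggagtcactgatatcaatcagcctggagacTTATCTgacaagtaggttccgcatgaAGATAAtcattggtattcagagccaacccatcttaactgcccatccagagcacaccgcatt
The Cpa3 window holds 1 match, 46 bases before the start, and the Ms4a2 window holds 3, while the other Tph1 window holds none. Of the 9 members with an entry in the promoter table, 7 had a match in at least 1 window: Cpa3, Tph1, Slc18a2, Hdc, Fcer1a, Ms4a2 and Cma1. Srgn and Fcer1g had none. By window, 7 of the 11 windows of the members held at least 1 match, against 29.8% of all 32851 windows of this length in the table. Matches thus stood in windows of detected members and of members without counts. The motif CATGTG, known for the factor MITF, was found in 1 of the 11 windows, that of Fcer1a, and in 14.2% of all windows, and the wider motif CANNTG, which CATGTG is part of, in 9 of 11 and 72.3%. A match describes letters in the window and does not show that a factor binds there.

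The detected members differed in how far they varied over the libraries. Of the 5 members averaging at least 1 FPKM, 1 had a log2 range over 1, Tph1, against 3.61% of all 11874 such genes. The log2 range was 1.10 for Tph1, 0.54 for Cpa3, 0.31 for Slc18a2, 0.25 for Fcer1g and 0.05 for Srgn. Without library 01 it was 0.16 for Slc18a2, 0.11 for Fcer1g and 0.02 for Srgn. With all 4 libraries the median of the 5 was 0.31, against 0.27 for all such genes, and the range of Tph1 was wider than that of 97.1% of them and the range of Cpa3 wider than that of 85.2%. Of the 7 members with 20 or more counts in all, 4 (Tph1, Cpa3, Slc18a2 and Hdc) had Poisson intervals of their highest and lowest library that did not overlap, against 50.9% of all 14864 genes with as many counts. Without library 01 this number fell to 2, since the Slc18a2 and Hdc intervals then overlapped. The share of all genes without library 01 was not computed, so this lower number has no share to stand beside. The members were chosen with these levels known, so the shares are given for scale.

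**Figure D2:**
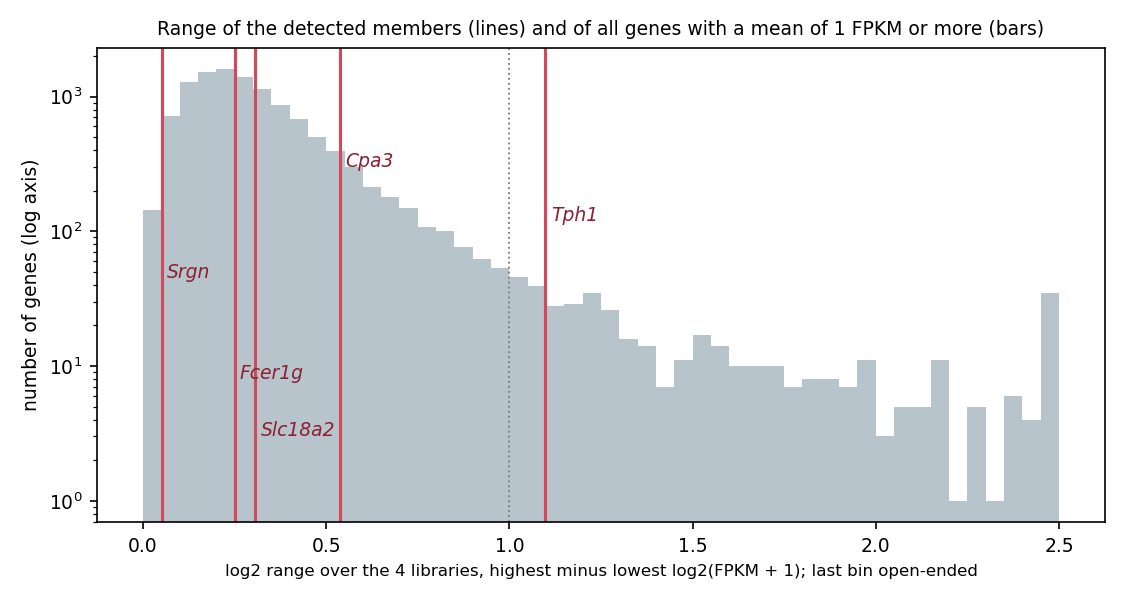
Number of genes (log axis) by log2 range over the 4 libraries, for all 11874 genes averaging at least 1 FPKM (bars), with the 5 detected members as lines and a dotted line at a range of 1. Srgn lies at 0.05 near the low end, Fcer1g at 0.25 and Slc18a2 at 0.31 near the median of 0.27, Cpa3 at 0.54, and Tph1 at 1.10 in the upper tail.

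The genes with the pattern most like that of Tph1 were Serpinb1a, Adgre1 and Fcgr1. Likeness was measured as the largest difference over the 4 libraries between log2(FPKM + 1) values, each centred on the mean of its gene, among 7726 other genes averaging at least 5 FPKM. The largest difference from Tph1 was 0.047 for Serpinb1a, 0.052 for Adgre1 and 0.055 for Fcgr1, and 10 genes in all, 0.129%, came within 0.1. Serpinb1a, which encodes an inhibitor of granule serine proteases, was at 231 FPKM in library 01, 226 FPKM in library 02, 106 FPKM in library 21 and 111 FPKM in library 22. Adgre1, which encodes the macrophage antigen F4/80, was at 218, 220.5, 97.7 and 96.2 FPKM in the same order, and Fcgr1, the gene of the high-affinity IgG receptor, at 20.9, 21.0, 9.7 and 8.96 FPKM. The closest genes to Cpa3 were Gm43096, Runx1 and Mrm1, each within 0.02, and Runx1, a blood transcription factor gene, was at 17.6, 17.0, 11.8 and 12.7 FPKM. For Cpa3, 197 genes came within 0.1. The patterns of the other detected members were shared by more genes, with 2071 genes within 0.1 of Srgn (closest Actr1a, Gm7536 and Egln1), 834 within 0.1 of Slc18a2 (closest Mtpap, Utp20 and Blvra) and 440 within 0.1 of Fcer1g (closest Hras, Ppp1r21 and Snx16).

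**Figure D3:**
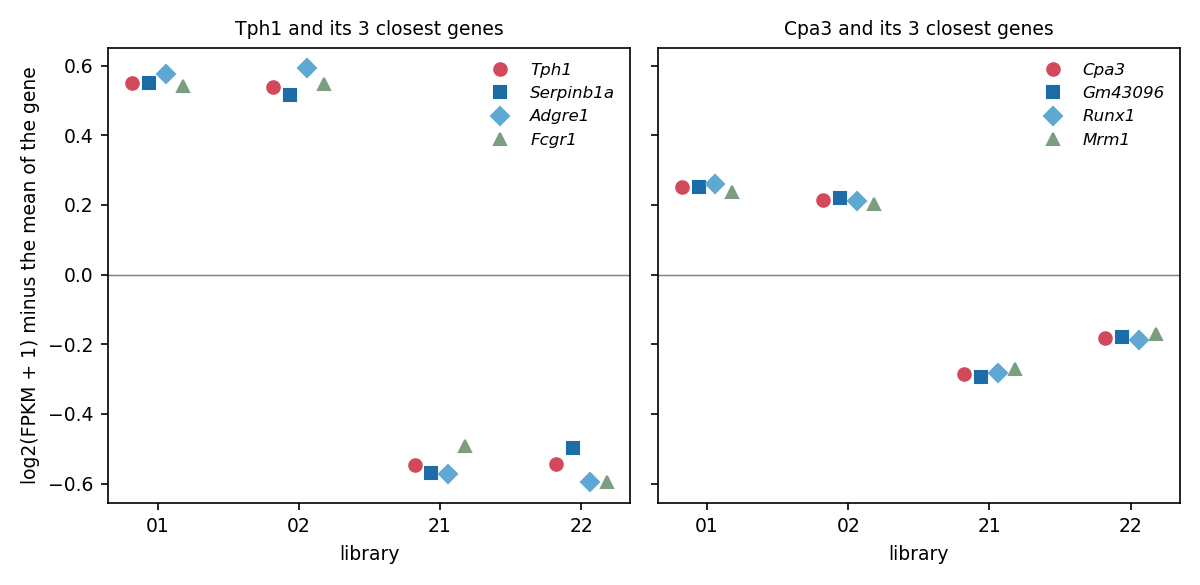
log2(FPKM + 1) minus the gene's mean over the 4 libraries, by library, for Tph1 (left) and Cpa3 (right), each with its 3 closest genes. The largest difference from Tph1 in any library is 0.047 for Serpinb1a, 0.052 for Adgre1 and 0.055 for Fcgr1, and Gm43096, Runx1 and Mrm1 lie within 0.02 of Cpa3, with libraries 01 and 02 above the line and libraries 21 and 22 below it.

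Other genes of the granule, the receptor pathway and the mast cell surface were counted from lists of 297 symbols, 295 of which were in the table. Genes named from them are the most abundant and the most variable of each list, and any other was chosen after its values were seen. Of 18 further granule proteases and their relatives, 3 were detected, beside 20.1% of all genes, 14 were under 1 FPKM throughout and 11 had no count. Those without a count were Cma2, Mcpt1, Mcpt4, Mcpt9, Gzmd, Gzme, Gzmf, Gzmg, Gzmn, Tpsg1 and Prss34. Cma1 belongs to a cluster of such genes on chromosome 14, where 9 of the 15 counted here had no count. At the far end of that cluster, 314163 bases from Cma1, Gzmb, the gene of the cytotoxic protease granzyme B, was at 31.4 FPKM in library 01, 30.3 FPKM in library 02, 73.7 FPKM in library 21 and 71.9 FPKM in library 22. Its log2 range was 1.25. Ctsg, the gene of cathepsin G, lies 155206 bases from Cma1 and was at 38.6, 37.0, 23.5 and 19.6 FPKM, higher in libraries 01 and 02. Within 1 cluster, Gzmb and Ctsg thus had their higher values in different libraries, while chymase and Mcpt genes stayed at or near 0, with Mcpt2 at 0.81 to 1.15 FPKM and Mcpt8 at 0.31 to 0.86 FPKM. Parts of the Cma2 and Mcpt9 transcripts share sequence with each other, and 79.8% and 89.4% of their stretches were unique. Ctsc, whose product cathepsin C activates granule proteases, was at 60.1, 58.9, 44.2 and 47.1 FPKM, and Cpa3 was 5.19 to 5.55 times Ctsc in each library.

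Of 20 genes of amine handling, 5 were detected, a share close to the 20.1% of all genes, and 9 had no count. The detected genes included Qdpr and Gch1, which recycle and make the cofactor of tryptophan hydroxylase, at 64.8, 64.4, 74.8 and 74.2 FPKM and at 8.91, 8.24, 7.66 and 7.21 FPKM. Spr, another gene of that cofactor's synthesis, had the widest log2 range of the list, 0.65, at 4.66, 4.31, 7.31 and 5.82 FPKM. Maoa, whose product degrades serotonin, was at 16.7, 15.9, 17.1 and 17.5 FPKM. Ddc, whose product turns the Tph1 product into serotonin, was under 1 FPKM with 47, 47, 21 and 23 counts in libraries 01, 02, 21 and 22 (chosen after its values were seen). Tph1 was 221, 232, 231 and 219 times Ddc per length, with counting intervals that overlapped over all libraries. Hnmt and Aoc1, of histamine breakdown, had no count, nor did the histamine receptor genes Hrh1, Hrh3 and Hrh4, and Slc6a4, the serotonin uptake transporter gene, had at most 7 counts in a library (all chosen after their values were seen).

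The lists for glycosaminoglycan chains and for exocytosis were detected nearly whole, beside 20.1% of all genes. Of 23 genes that build heparin and chondroitin chains, 20 were detected, and the list median was 11.7, 12.7, 11.2 and 11.0 FPKM in libraries 01, 02, 21 and 22. Ndst2, which encodes a sulfotransferase needed for heparin in mast cells, was at 35.7, 37.3, 35.8 and 36.3 FPKM, a range of 0.06 that was close to that of Srgn. Chsy1 (42.2, 43.0, 32.7 and 30.7 FPKM) and Hs6st1 (39.1, 38.7, 29.9 and 28.2 FPKM), of chain polymerisation and sulfation, were higher in libraries 01 and 02, and Papss2, a sulfate donor gene, varied most at 3.46, 4.23, 2.15 and 2.32 FPKM. Of 21 exocytosis genes found, 19 were detected. Rab27b, whose product guides granules to the membrane, was at 38.6, 38.2, 40.2 and 41.2 FPKM. The fusion protein gene Stx4a was at 29.4, 28.8, 31.6 and 33.1 FPKM, and Ap3b1, an adaptor gene, was at 29.4, 32.0, 29.8 and 29.4 FPKM. Syt9 varied most, at 1.83, 2.29, 1.74 and 1.25 FPKM. No gene of either list had a log2 range over 1, beside 3.61% of all genes averaging at least 1 FPKM.

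Most of the listed signalling genes that act downstream of the receptor were detected, while its alpha and beta chains were at or near 0. Which receptors these genes serve in these cells was not tested. Of 30 such genes, 27 were detected, against 20.1% of all genes. None had a log2 range over 1, against 3.61% of all genes averaging at least 1 FPKM. The list median was 17.6, 16.7, 17.4 and 17.4 FPKM. Pik3cd, a kinase subunit gene, was at 149, 149.8, 87.9 and 83.7 FPKM, higher in libraries 01 and 02. The adaptor gene Lcp2 was at 97.4, 102, 103 and 104 FPKM and Alox5ap, of leukotriene synthesis, at 133, 123, 119 and 121 FPKM. The kinase genes Lyn, at 16.8 to 21.9 FPKM, and Syk, at 5.06 to 5.78 FPKM, and the adaptor gene Lat, at 64.5 to 67.8 FPKM, which act first after the receptor, were chosen after their values were seen.

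Among 11 partner receptors found for the gamma chain, 4 were detected. The share of all genes detected, 20.1%, stands beside this and the following counts. Fcgr3, a low-affinity IgG receptor gene, was at 20.7, 20.7, 24.0 and 21.7 FPKM. Its log2 range was 0.21, while Fcgr1, given above, had a range of 1.14. Clec4e, the gene of a C-type lectin receptor, was at 11.1, 11.2, 6.81 and 7.13 FPKM. All 16 relatives of Ms4a2 in the MS4A family were under 1 FPKM throughout, and 12 of them had no count. Of 22 further surface proteins of mast cells, 13 were detected, led by Cd63, a granule membrane protein gene, at 166, 163, 148 and 143 FPKM. Csf2rb and Csf2rb2, receptor chain genes of close sequence between which reads can be split, were at 165, 167, 143 and 140.4 FPKM and at 149.9, 153, 142 and 135 FPKM. Kit, the stem cell factor receptor gene, had the widest log2 range of that list, 0.76. It was at 58.9 FPKM in library 01, 64.6 FPKM in library 02, 100.7 FPKM in library 21 and 100.2 FPKM in library 22, so that the libraries with the lower Tph1 and Cpa3 values had the higher Kit values. Of 16 transcription factors known from mast cells, 15 were detected, with Gata2 at 173, 165, 131 and 135 FPKM, Ikzf1 at 36.7, 37.2, 43.8 and 43.0 FPKM and Tcf3 at 34.0, 32.4, 33.9 and 32.5 FPKM, while Gata1 varied most at 2.69, 3.49, 1.62 and 1.44 FPKM.

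**Figure D4:**
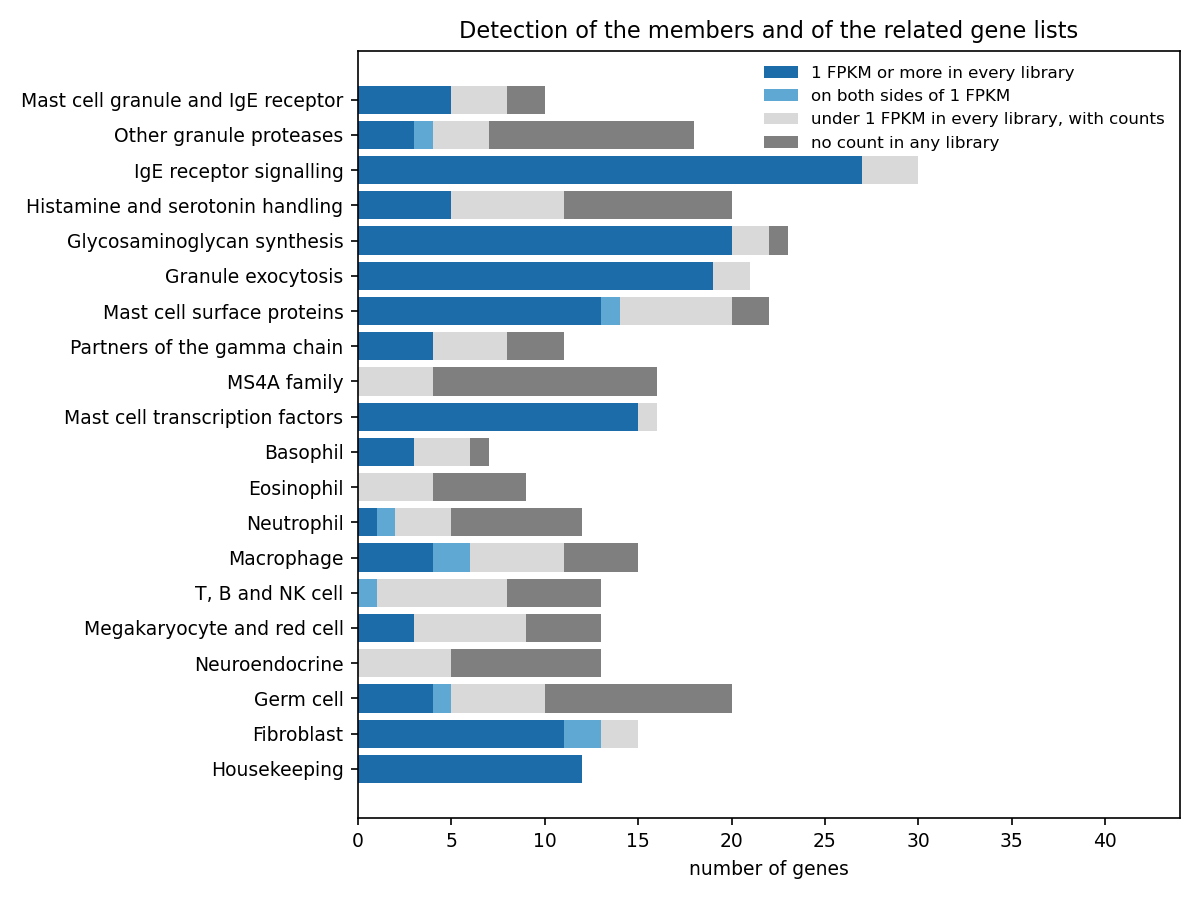
Number of genes (horizontal axis) of the 10 members and of each further list that reached 1 FPKM in all 4 libraries, on both sides of 1 FPKM, under 1 FPKM in every library with counts, or without a count. The members divide into 5 detected and 5 under 1 FPKM, 27 of 30 receptor signalling genes and 15 of 16 transcription factors are detected, and 0 of 16 MS4A genes are.

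Defining markers of the cell types that could carry these transcripts were counted, with the further genes of a wider list where it held more. The 20.1% of all genes that were detected stands beside each count. Of 14 mast cell markers, 5 were detected (Cpa3, Kit, Il1rl1, Gata2 and Mitf), 9 were under 1 FPKM throughout and 5 had no count (Fcer1a, Tpsb2, Mcpt4, Mrgprb1 and Mrgprb2). Their summed level was 632, 628, 520.1 and 545 FPKM in libraries 01, 02, 21 and 22, with Cpa3 the largest term. None of the 5 defining basophil markers reached 1 FPKM in any library, and their sum was at most 1.45 FPKM. The wider basophil list of 7 genes held 3 that were detected, the cytokine genes Il4 and Il13 and the factor gene Gata2, which mast cells are also known to express, and summed to 196, 188, 148 and 154 FPKM in libraries 01, 02, 21 and 22, mostly Gata2. This sum was higher in libraries 01 and 02, as were Tph1 and Cpa3, and its part in their values was not tested. Nor did any of the 9 eosinophil and 11 defining lymphoid markers, whose sums were at most 0.71 and 0.67 FPKM. In the wider lymphoid list of 13 genes, with a sum of at most 1.87 FPKM, Prf1, the perforin gene, was at 0.63, 0.80, 1.09 and 1.2 FPKM in libraries 01, 02, 21 and 22. The 13 enterochromaffin and neuroendocrine markers, of other cells that use Tph1 or Slc18a2, were also all under 1 FPKM, with a summed level of at most 0.27 FPKM and no count for 8 of them. Of 15 macrophage markers, 4 were detected in every library, 9 were under 1 FPKM throughout and 4 had no count (Marco, C1qa, C1qb and C1qc). Their summed level of 269, 271, 123 and 123 FPKM was mostly Adgre1 and moved with Tph1, and their part in the Tph1 values was not tested. Of 11 megakaryocyte and red cell markers, 3 were detected, 2 of them with a log2 range over 1, and 8 were under 1 FPKM throughout. Such a range was found for 3.61% of all genes averaging at least 1 FPKM. All 11 summed to 55.8 to 73.6 FPKM, with Itga2b the largest term. Of 10 defining neutrophil markers, 1 was detected, Cxcr2, at 13.7 to 18.7 FPKM. The wider neutrophil list of 12 genes added Mmp8, a collagenase gene, at 1.04, 0.76, 1.5 and 1.96 FPKM.

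For the labelled cell type, 4 of 20 germ cell markers were detected, a share close to the 20.1% of all genes, and 10 had no count. The sum of 340, 343, 386 and 381 FPKM came mostly from Ifitm3 and Kit, genes that many other cells use. The other 2 detected markers were germline genes. Tex14 was at 4.83, 5.28, 5.07 and 5.12 FPKM and Piwil2, a gene picked with its values in view, at 2.54, 2.42, 1.44 and 1.88 FPKM. Of the 20 markers, 15 were under 1 FPKM throughout. Among these, Ddx4 had at most 2 counts in a library and Dazl at most 4 (both chosen after their values were seen). Of 15 fibroblast markers, 11 were detected, beside 20.1% of all genes, and 2 were under 1 FPKM throughout. Their sum of 712, 717, 660.2 and 672 FPKM came mostly from Vim, S100a4 and Fn1. Which cells supplied this RNA was not tested.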

How the data were processed

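The deposited table gives whole-number counts, taken as raw because library totals differ, and the authors' FPKM values, per the file headers. The submitters' processing notes list FastQC, HISAT2 and DESeq2 without version or role. Counter, genome build, annotation and strand setting: not given in the sources used here. Gene starts matched GENCODE M21 (GRCm38) for 1499 of 52083 shared identifiers, so coordinates are printed as deposited and promoter windows, credited to RefSeq, carry their own build. Counts divided by length and FPKM returned the library total within 0.0492% for genes above 10 FPKM.

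The labels place no library in a group, so no test between groups was run. Counts carry exact Poisson 95% intervals, shares Wilson intervals and ratios of libraries Clopper-Pearson intervals. All, and the floor of 3 counts, cover counting error only and hold no variation between cultures. They also take counts as independent, which PCR copies are not. Ratios between libraries set the highest against the lowest, picked from the same counts, and their intervals do not allow for this choice. Log2 values use a pseudocount of 1 FPKM, which understates the change of low genes. The members, lists and naming rule were chosen with earlier results of these data known. The rule names all members, up to 3 most abundant genes and the most variable gene of each list, and the 3 closest genes per member with a mean of 5 FPKM or more; a list gene that it names is not reported here. Alternatives were other thresholds, pseudocounts, scalings (median-of-ratios and TMM from edgeR 4.0.16 in R 4.3.3, and a common FPKM sum), filters and libraries left out. Calculations used Python 3.11.15, numpy 2.4.6 and scipy 1.17.1 and were tested on simulated data.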

Additional observations from a re-analysis of the deposited data

How the results depend on the processing

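The number of members detected (5) was the same at thresholds of 0.5 and 2 FPKM, with a common FPKM sum, with identifiers of a symbol summed and with each library left out. The number with a log2 range over 1 (1) was the same with pseudocounts of 0.1 and 0.5 FPKM, under the 3 other scalings, without the filter on low values and with each library left out. The share of all genes over that range was 3.61% as reported, and 6.96% and 4.98% with those pseudocounts. It was 3.59% to 3.63% under the scalings and 2.7% to 2.88% with a library left out, and was not computed without the filter. The number of members with 20 or more counts whose Poisson intervals did not overlap was 4, and 3 with 99% intervals. It was 2 to 4 with a library left out, the lowest without library 01, where fewer libraries were compared. For the overlap of intervals, the share of all genes was not computed with 99% intervals or with a library left out. Over pseudocounts and scalings the log2 range of Tph1 was 1.10 to 1.11 and that of Cpa3 0.53 to 0.54, and without library 21 that of Cpa3 was 0.43. Without library 01 the range was 0.16 for Slc18a2, against 0.31 with all libraries, 0.11 for Fcer1g, against 0.25, and 0.02 for Srgn, against 0.05; that of Srgn was 0.03 with a common FPKM sum and 0.07 with TMM factors. No paired analysis was possible because the labels give no groups. Depth limits Hdc, Ms4a2 and Cma1, whose counts in a library were at most 13.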

Other observations

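Cytokine genes known from mast cells and basophils were detected. Il4 was at 18.6 FPKM in library 01, 19.8 FPKM in library 02, 13.8 FPKM in library 21 and 15.4 FPKM in library 22, from 210 to 316 counts. Il13 was at 3.30, 2.48, 1.67 and 2.45 FPKM in the same order, from 25 to 49 counts. Alox5ap was above 119 FPKM in every library, while Alox5, the gene of the lipoxygenase its product assists, had 0, 0, 3 and 2 counts (chosen after its values were seen).

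The Tph1 values fell into separate pairs, with 189 and 188 FPKM in libraries 01 and 02 and 87.8 and 87.99 FPKM in libraries 21 and 22. On the log2(FPKM + 1) scale the gap between the pairs was 1.08, against 0.011 and 0.0034 within them. For Cpa3 (333, 325, 229 and 247 FPKM in libraries 01, 02, 21 and 22) the gap between the pairs was 0.40, against 0.038 and 0.11 within them. Of the 93 genes averaging at least 5 FPKM with a log2 range over 1, libraries 21 and 22 were the lowest for 50 and libraries 01 and 02 for 24. These are patterns of the 4 libraries, which the labels put in no group.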
